A study of Mus musculus with 4 samples.

Results

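Actin filaments and the proteins that build and take them apart were followed through 8 genes of mouse embryonic stem cells: the actins Actb and Actg1, the filament-severing protein cofilin (Cfl1), the monomer-binding proteins profilin (Pfn1) and thymosin beta (Tmsb4x and Tmsb10), and the Arp2/3 complex subunits Arpc2 and Arpc3. They were picked by symbol from the 13831 symbols of the table, and all 8 had enough reads for every test. The cells were the J1 line, grown in serum with LIF, and carried either intact Mov10, an RNA helicase gene (wild type, WT), or its knockout (KO), with no treatment; the labels do not say how many KO clones there were. There were 2 libraries per genotype, named by genotype and replicate number (WT 1 and so on). Each read is 1 native RNA molecule, passed through a nanopore with its poly(A) tail, so that it gives a tail length in nucleotides (nt) and also counts as 1 molecule of its gene whatever the length of that gene. Nothing in the labels says that the libraries of a genotype came from separate cultures, so p-values measure only the spread between these libraries.

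Actin cycles between monomers and filaments. Profilin delivers monomers to growing filament ends, the beta thymosins hold monomers in reserve, cofilin severs old filaments, and the Arp2/3 complex starts new branches. The tail of a messenger RNA is bound by poly(A)-binding protein, is shortened with age in the cytoplasm, and its loss usually comes before decay. Mov10 is best known for restricting retroelements and for acting with RNA silencing proteins on the untranslated ends of messenger RNAs.

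The libraries held from 351133 (WT 2) to 683239 (KO 1) reads, and library median tails were 97.3, 105.6, 105.8 and 98.1 nt in WT 1, WT 2, KO 1 and KO 2. The targeted gene, Mov10, had 26 and 14 reads in WT against 0 and 1 read in KO (limma, adjusted p = 0.0335). Levels are given in reads per 1000000 reads (RPM), and as scaled RPM after the libraries were put on 1 scale by the median of gene ratios. All 10 stem cell markers examined had reads in every library, with summed levels of 10559 and 9336 scaled RPM in WT and 8064 and 6987 scaled RPM in KO. Of 7 fibroblast markers only Thy1 had reads, from 2 to 8 per library, and the 6 others (the collagens Col1a1, Col1a2 and Col3a1, with Dcn, Lum and Postn) had none. The muscle actins Acta1, Acta2, Actc1 and Actg2 had 0 reads in all 4 libraries, where 3 counts would be from 4.39 to 8.54 RPM.

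The promoters of 4 members are shown because the results below turn on the read numbers of Actg1, Pfn1 and Tmsb4x, with Cfl1 beside them as a member whose read numbers overlapped between the genotypes. Each is the 160 bases before the RefSeq start in GRCm38.p6, read 5′ to 3′ on the gene's strand. Capitals mark matches on either strand to the CArG box (the element bound by serum response factor), to the CCAAT box CCAAT, or to the GC box, searched as GGGCGG. The TATA box was searched as TATAAA, and no matches overlapped.
Actg1 (chr11:120348496-120348655, minus strand): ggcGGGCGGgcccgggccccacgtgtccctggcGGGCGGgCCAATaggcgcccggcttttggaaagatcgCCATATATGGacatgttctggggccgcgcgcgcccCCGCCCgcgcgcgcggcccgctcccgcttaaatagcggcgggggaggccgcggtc
Pfn1 (chr11:70654651-70654810, minus strand): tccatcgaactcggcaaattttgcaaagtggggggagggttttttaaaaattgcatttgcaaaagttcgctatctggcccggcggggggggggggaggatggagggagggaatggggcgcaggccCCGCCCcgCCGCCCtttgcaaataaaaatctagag
Tmsb4x (chrX:167209219-167209378, minus strand): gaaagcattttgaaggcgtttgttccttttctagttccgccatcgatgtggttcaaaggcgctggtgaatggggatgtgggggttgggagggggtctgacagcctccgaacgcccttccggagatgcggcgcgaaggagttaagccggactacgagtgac
Cfl1 (chr19:5490295-5490454, plus strand): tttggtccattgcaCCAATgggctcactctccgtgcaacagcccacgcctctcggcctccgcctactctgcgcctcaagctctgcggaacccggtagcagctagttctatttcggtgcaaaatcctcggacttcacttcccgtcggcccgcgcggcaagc

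The CArG box of Actg1 began 90 bases before the start, in a promoter that also held the CCAAT and GC boxes. Promoter entries, 9 in all, were found for 7 of the 8 members. There was none for Actb, so its promoter was not searched. Over the 250 bases before the start, Actg1 was the only member searched that had a CArG box, in 1 of the 9 entries. This match was present in 1.47% of all 32851 promoter entries. The CCAAT box was found in Actg1 and Cfl1 (2 of the 9 entries), against 33.8% of all entries. The GC box was found in 5 members (Actg1, Arpc2, Pfn1, Tmsb10 and Tmsb4x). By entry this was 7 of the 9, against 32.7% of all entries. The TATA box was found in none, against 12.4% of all entries. In Tmsb4x the GC box lay farther out than the 160 bases printed.

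Tail length was described first within the stem cells as such. Averaged over the 4 libraries, the median tail was longest for Actb, at 127.3 nt ± 7.69 (SD, n = 4). Arpc3 (117.7 nt), Pfn1 (115.1 nt), Tmsb4x (114.4 nt) and Arpc2 (112.2 nt) followed. Actg1 (107.6 nt ± 10.4, SD, n = 4), Tmsb10 (106.8 nt) and Cfl1 (101.1 nt ± 8.71, SD, n = 4) had the shortest. Actb had longer tails than Arpc3 in 4 of 4 libraries, but the WT 2 medians were nearly equal, at 119.54 and 119.525 nt. Tmsb10 had longer tails than Cfl1 in 4 of 4. From Arpc3 down to Actg1, each member was longer than the next in 2 of 4 libraries only, so their order was within the spread. Actg1 was longer than Tmsb10 in 3 of 4. Among the 1935 genes tested for tail length, the percentile of Actb ran from 71.8 to 95.6 over the libraries and that of Cfl1 from 20.4 to 45.3.

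The cytoplasmic actins, whose proteins differ in only a few residues, differed in median tail length in the same direction in every library. Actb had medians of 122.1, 119.5, 135.6 and 131.9 nt in WT 1, WT 2, KO 1 and KO 2. Actg1 had 100, 113.5, 119.2 and 97.8 nt in the same order. Actb was the longer of the pair in every library, with ratios of 1.22, 1.05, 1.14 and 1.35 and a mean log2 ratio of 0.25 ± 0.15 (SD, n = 4). An exact two-sided sign-flip permutation test gave p = 0.13, the smallest that 4 libraries allow, and an adjusted p of 0.375 over the 3 pairs compared. For the lowest 10% of tails the ranges of the actins over the libraries did not overlap. The lowest 10% of Actb tails ended between 70.7 and 81.7 nt in the 4 libraries, and that of Actg1 between 43.2 and 51.7 nt. At the upper quartile the ranges over the libraries overlapped, with 156.0 to 169.4 nt for Actb and 135.5 to 159.98 nt for Actg1. Within each library the upper quartile of Actb was still the longer. It was 169.4, 156.0, 166.2 and 162.4 nt in WT 1, WT 2, KO 1 and KO 2. That of Actg1 was 142.2, 150.7, 159.98 and 135.5 nt in the same order. Tails under 30 nt made up 2.78%, 2.22%, 1.44% and 3.46% of Actg1 reads, or 71 of 3047 reads in all. In Actb they were 3 of 660 reads, with 1 of 59 (1.69%) in WT 1 and 2 of 222 (0.901%) in KO 2. The ranges of this share thus overlapped between the actins. Actb had 0 of 151 in WT 2 and 0 of 228 in KO 1. The upper limits of the 95% Wilson intervals of these 0 shares were 2.48% and 1.66%.

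**Figure D1:**
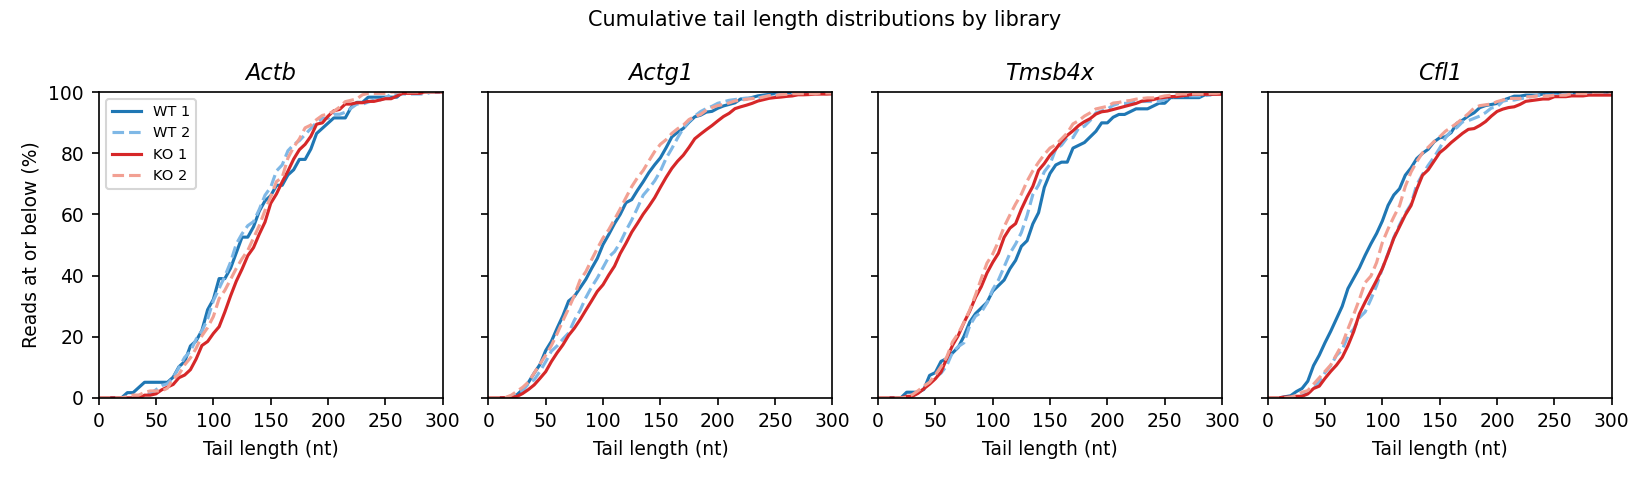
Cumulative share of reads (vertical axis, %) at or below each tail length (horizontal axis, nt) for Actb, Actg1, Tmsb4x and Cfl1, with 1 line per library (blue WT, red KO; solid replicate 1, dashed replicate 2). The lowest 10% of tails end between 70.7 and 81.7 nt for Actb and between 43.2 and 51.7 nt for Actg1; for Tmsb4x both KO curves lie left of both WT curves around the middle, where the KO medians are 108.0 and 103.7 nt.

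The other related pairs showed no steady order. Tmsb4x and Tmsb10, paralogous monomer-holding peptides, had tail ratios of 1.31, 1.09, 0.992 and 0.929 in WT 1, WT 2, KO 1 and KO 2, so Tmsb4x was longer in both WT libraries and shorter in both KO libraries. The mean log2 ratio over the 4 libraries was 0.10 ± 0.21 (SD, n = 4; exact permutation p = 0.5, adjusted p = 0.5). The difference of this ratio between the genotypes was -0.31 on the log2 scale (exact permutation p = 0.33, the smallest with 2 libraries against 2, and adjusted p = 1). Arpc2 and Arpc3, subunits of 1 complex, had a mean log2 ratio of -0.07 ± 0.14 (SD, n = 4; exact permutation p = 0.375, adjusted p = 0.5).

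Genes with tails most like the actins were named by the smallest root mean square log2 difference over the 4 libraries, among genes with at least 100 reads in each. For Actg1 these were Pabpc1 (0.0307), which encodes the main cytoplasmic poly(A)-binding protein, H2az2 (0.0427) and Rpl10 (0.0461), out of 437 genes compared. Pabpc1 had medians of 96.9, 111.2, 117.3 and 99.1 nt in WT 1, WT 2, KO 1 and KO 2, with the higher values in the same libraries as Actg1. For Actb the nearest were Hmgb1 (0.0577), Pcbp2 (0.0683) and Erh (0.0686), out of 438. These distances describe 4 values per gene that share the libraries' overall shifts.

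Actg1 reads came from more than 1 transcript. ENSMUST00000071555.12 held 2599 of its reads and ENSMUST00000106215.10 held 447, or 10.9%, 14.5%, 16.9% and 13.1% of Actg1 reads in WT 1, WT 2, KO 1 and KO 2. The medians of the less used transcript were 105.0, 128.5, 124.5 and 101.0 nt, and those of the main transcript 98.9, 113.2, 118.9 and 97.8 nt. The less used transcript was thus the longer-tailed in each library. All Tmsb10 transcripts also carried reads under the symbol Gm9844, a Tmsb10-like pseudogene, so Tmsb10 values depend on how the authors split these reads.

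Tails were then compared between the genotypes, the stated purpose of the study. No member differed past the threshold, and 0 of 1935 genes did (limma, adjusted p under 0.05: 0%; 45 genes, or 2.33%, had an unadjusted p under 0.05, none of them a member). The fitted log2 change of median tail length lay between -0.22 and 0.15 for the members, with a median of 0.09 against 0.01 over all genes tested, and 7 of 8 were above 0 against 51.8% of all genes. Both KO libraries lay above both WT libraries for Actb and Pfn1 (14.7% of all genes), and below them for Tmsb4x (11.8% of all genes).

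Tmsb4x had the lowest p of the members, and its fitted change was the only one below 0. Its median tails were 126.3 and 119.8 nt in WT and 108.0 and 103.7 nt in KO. The WT mean was 123.1 nt ± 4.62 (SD, n = 2) and the KO mean 105.8 nt ± 3.08 (SD, n = 2), a gap larger than the spread between replicates. The fitted ratio was 0.860 (95% interval 0.723 to 1.02; limma, unadjusted p = 0.0876, adjusted p = 0.9998). Tails of 150 nt or more made up 26.6% and 24.2% of Tmsb4x reads in WT and 20.6% and 18.3% in KO, and this share was also lower in both KO libraries for 13.2% of all genes. The Tmsb4x median stood at the percentiles 89.0 and 72.3 of tested genes in WT 1 and WT 2, and at 44.9 and 54.5 in KO 1 and KO 2.

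For Actb the WT mean was 120.8 nt ± 1.82 (SD, n = 2) and the KO mean 133.8 nt ± 2.61 (SD, n = 2). The fitted ratio was 1.11 (95% interval 0.916 to 1.34; limma, adjusted p = 0.9998). Tails of 150 nt or more made up 33.9% and 31.1% of Actb reads in WT and 36.4% and 34.2% in KO; this share was higher in both KO libraries for 14.3% of all genes. Pfn1 had 108.6 and 112.6 nt in WT and 121.5 and 117.6 nt in KO, with a fitted ratio of 1.08 (95% interval 0.904 to 1.29).

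Actg1, the most read member, had overlapping genotypes. Its WT mean was 106.8 nt ± 9.56 (SD, n = 2) and its KO mean 108.5 nt ± 15.1 (SD, n = 2), with a ratio of 1.01 (95% interval 0.875 to 1.17). WT 2 and KO 1 were the libraries with longer Actg1 tails, as they were for library medians over all reads. Cfl1 had 89.4 and 107.4 nt in WT and 108.1 and 99.4 nt in KO, where only WT 1 stood low. Tmsb10 likewise had its low value in WT 1, with 96.8 and 110.0 nt in WT against 108.9 and 111.5 nt in KO.

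The Arp2/3 subunits rested on the fewest reads, from 38 to 125 per library. Arpc2 had 115.9 and 102.8 nt in WT and 111.3 and 118.9 nt in KO. The 95% interval of the Arpc2 median in WT 2, on 38 reads, ran from 82.3 to 132.8 nt, wider than any gap between its libraries. Arpc3 had 106.7 and 119.5 nt in WT and 115.2 and 129.5 nt in KO. Ratios were 1.05 (95% interval 0.845 to 1.31) for Arpc2 and 1.08 (0.875 to 1.34) for Arpc3.

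**Figure D2:**
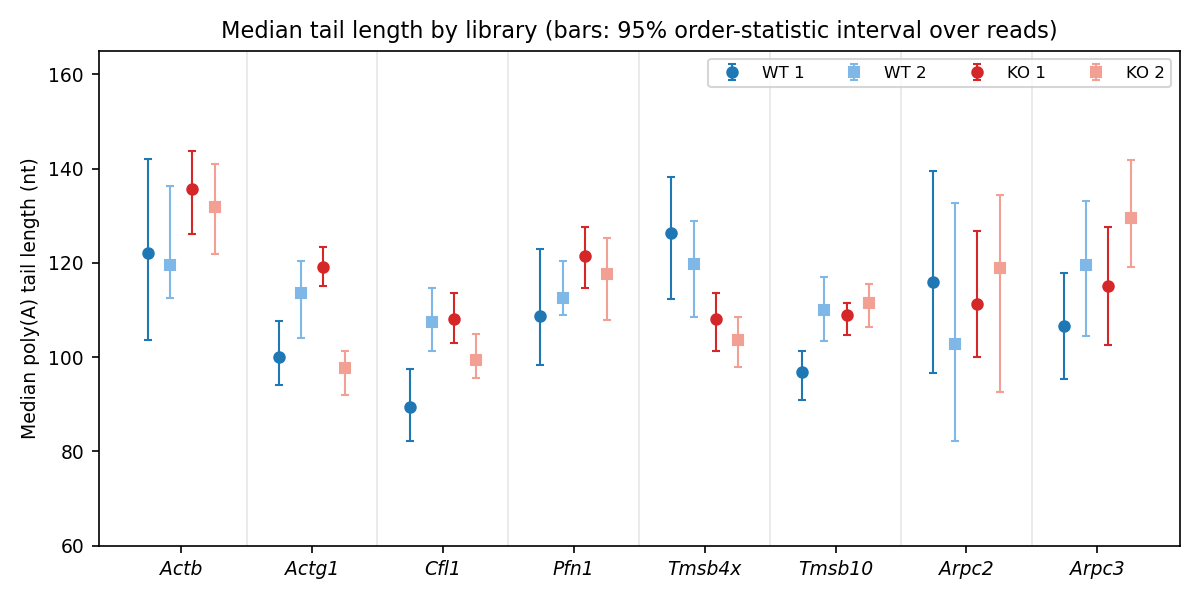
Median tail length in nt (vertical axis, from 60 nt) of the 8 members in each library, with 95% order-statistic intervals over reads (bars). Both KO medians lie above both WT medians for Actb and Pfn1 and below them for Tmsb4x (126.3 and 119.8 nt in WT, 108.0 and 103.7 nt in KO); the genotypes of the other 5 overlap.

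Read numbers were compared next. The 8 members together held 0.348% and 0.418% of reads in WT and 0.542% and 0.703% in KO, so both KO libraries had the larger share. Among single genes, 20.5% had both KO libraries above both WT libraries in scaled RPM. The total weighs the most read members most. Actg1 had a mean of 1058 scaled RPM in WT and 1969 in KO, while Cfl1 had 739 and 705. In the fit 7 of the 8 members had more reads in KO. On the scaled RPM level, Actg1 was the most read (mean 1514), followed by Tmsb10 (1002), Cfl1 (722), Tmsb4x (585), Pfn1 (478), Actb (346), Arpc3 (183) and Arpc2 (147). Actg1 had more reads than Tmsb10, and Arpc3 more than Arpc2, in 4 of 4 libraries; Tmsb10 exceeded Cfl1 in 4 of 4, while Cfl1 exceeded Tmsb4x in 2 of 4, the WT libraries. Actg1 was thus above Actb throughout, with 6.65, 2.68, 5.79 and 4.16 times as many reads in WT 1, WT 2, KO 1 and KO 2.

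None of the 8 members passed an adjusted p of 0.05 for read number between the genotypes, where 1 of 4815 genes did (0.0208%), which was Mov10. Mov10 had 41 reads in all, close to the required mean of 10 reads per library. Over the 9 alternatives in which it could be fitted, its limma adjusted p ran from 2.06e-06 to 0.993, and it missed the threshold in 3 of them (without KO 1, without KO 2 and with the limma trend model). At an unadjusted p under 0.05 there were 3 members, all with more reads in KO (Actg1, Tmsb4x and Pfn1), against 10.4% of all genes, or 5.32% with more reads in KO. Both KO libraries lay above both WT libraries for 5 members (Actg1, Pfn1, Tmsb4x, Tmsb10 and Arpc2), against 20.5% of all genes, and below them for none, against 20%. The median log2 change was 0.58 over the members and 0.00 over all genes. The summed level of the 10 stem cell markers was lower in both KO libraries than in both WT libraries, as were 20% of single genes. This sum weighs the most abundant markers most, and single markers were not compared between the genotypes. The part of the markers in these differences was not tested. In bulk RNA, fewer cells of a kind and less RNA per cell cannot be told apart.

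Actg1 had 395 and 406 reads in WT and 1322 and 924 in KO. Scaled, this was 997 and 1120.05 RPM in WT and 1878 and 2060.1 RPM in KO, a fold of 1.86 (95% interval 1.35 to 2.55; limma, unadjusted p = 0.000551, adjusted p = 0.111). The groups did not overlap, and the gap between the genotype means exceeded the replicate SD of 87.1 RPM in WT and 129 RPM in KO.

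Pfn1 had 363 and 300.7 scaled RPM in WT and 541 and 707 scaled RPM in KO, a fold of 1.85 (95% interval 1.28 to 2.68; limma, adjusted p = 0.162). For Tmsb4x the levels were 275 and 444 scaled RPM in WT and 571 and 1048 scaled RPM in KO, a fold of 2.18 (95% interval 1.42 to 3.35; limma, adjusted p = 0.132). Tmsb4x, the member with the largest fold in reads, was also the one whose tails were shorter in both KO libraries; KO 2 held the most Tmsb4x reads and the shortest Tmsb4x median. Without WT 2 Actg1, Pfn1 and Tmsb4x passed the threshold (limma, adjusted p = 0.000352, 0.0377 and 6.37e-06), as did 456 of 5086 genes in all (8.97%). Without WT 1, Actg1 (limma, adjusted p = 0.00935) and Pfn1 (0.00852) passed and Tmsb4x did not, among 90 of 4978 genes in all (1.81%), and without KO 1 or KO 2 no gene passed.

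Actb, often used as a reference gene, had WT libraries that differed from each other more than the genotypes did. WT 1 held 59 Actb reads, or 134 RPM (95% exact interval 102 to 173), and WT 2 held 151, or 430.04 RPM (364 to 504). Scaled levels were 149 and 417 RPM in WT and 324 and 495 RPM in KO. The fold was 1.60 (95% interval 0.965 to 2.66; limma, adjusted p = 0.520). The WT libraries decided this value: the log2 change was 0.68 with all libraries, -0.06 without WT 1 and 1.40 without WT 2, and in the last case it passed the threshold (limma, adjusted p = 0.000263), where 8.97% of all genes passed.

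Tmsb10 had 984 and 770 scaled RPM in WT and 1044 and 1211 scaled RPM in KO, a fold of 1.28 (95% interval 0.917 to 1.80). Merged with the reads under Gm9844, its log2 change was 0.14 in place of 0.36. Arpc2 had 141 and 105 scaled RPM in WT and 162 and 181 in KO, a fold of 1.39 (95% interval 0.907 to 2.12). Cfl1 and Arpc3 showed overlapping groups, with folds of 0.922 (95% interval 0.641 to 1.33) and 1.01 (95% interval 0.670 to 1.51). Cfl1 was lowest in KO 1 (558 scaled RPM) and highest in KO 2 (852), on either side of the WT libraries (742 and 737).

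**Figure D3:**
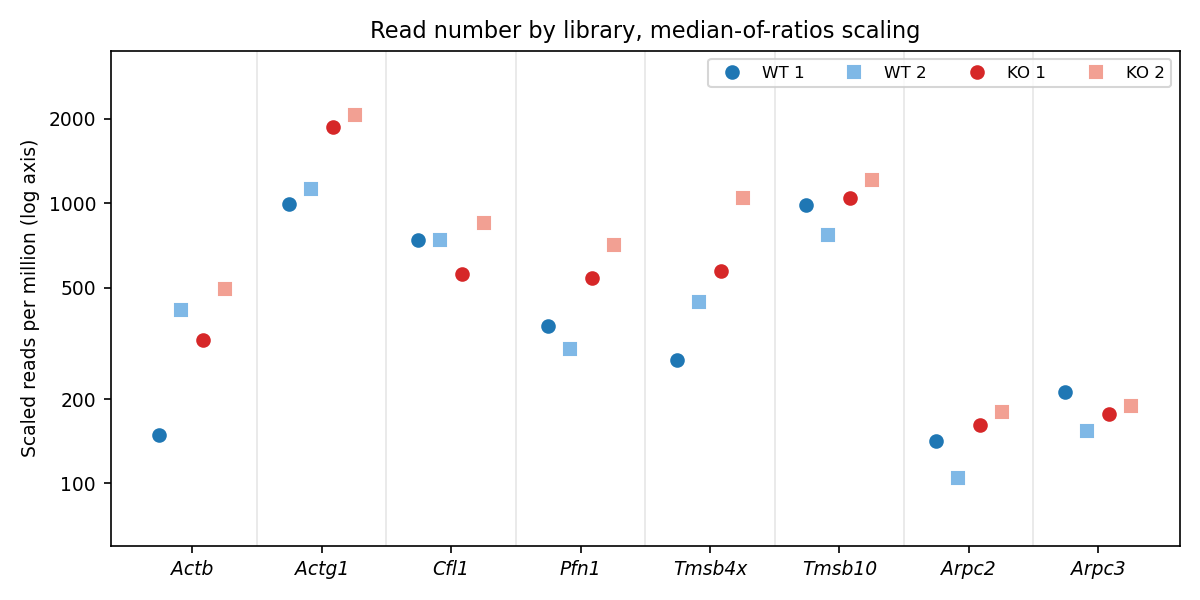
Scaled RPM (log axis) of the 8 members, with 1 point per library. Actg1 lies at 997 and 1120.05 in WT and at 1878 and 2060.1 in KO, and Actb shows its low point in WT 1 at 149; Cfl1 and Arpc3 overlap.

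Actg1 lies near the end of chromosome 11, in a stretch where many genes had more reads in KO. In RefSeq gene order, all 20 tested genes around it, 10 on each side, had a fitted log2 change above 0, against 50.01% of all genes. Of these neighbours, 18 had both KO libraries above both WT libraries, against 20.5% of all genes. Their median log2 change was 0.90, and that of Actg1 was 0.89, the 11th of the 21 values. The next genes toward the centromere were Slc38a10 (log2 change 0.68) and Ndufaf8 (0.84), and those toward the end were Nploc4 (0.96) and Hgs (1.61). The log2 ratio of Actg1 reads to the median of these neighbours was 4.17 and 5.27 in WT and 4.77 and 4.79 in KO, a difference of 0.05 (exact permutation p = 1, adjusted p = 1). The WT libraries lay on either side of the KO libraries. The neighbour median rested on few reads, as its middle genes had 17 and 27 reads in WT 1 and 10 and 10 in WT 2. With this spread and 2 libraries per genotype, the ratio cannot decide whether Actg1 changed apart from its neighbours.

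**Figure D4:**
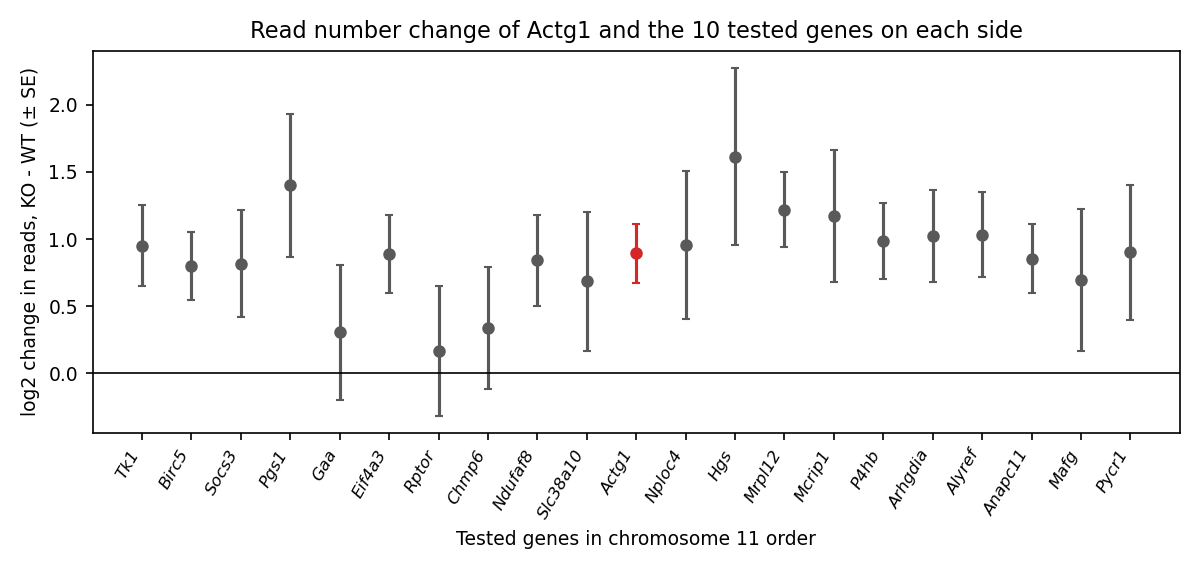
Fitted log2 change in read number, KO minus WT (vertical axis, bars ± SE), for Actg1 (red) and the 10 tested genes on each side of it in chromosome 11 order (grey). All 21 values are above 0, and Actg1 at 0.89 is in the middle of them.

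The neighbours of the other members were read in the same way. Pfn1, also on chromosome 11 but far from Actg1, had a log2 change of 0.89 while its 20 tested neighbours had a median of -0.17, and none of them reached the Pfn1 value. Tmsb4x on chromosome X had 1.12 against a median of 0.03 over 10 neighbours, again with none at its level. Actb on chromosome 5 had 0.68 against 0.19; 15 of its 20 neighbours were above 0, and 3 were at or above Actb. Of the neighbours of Pfn1, 5 of 20 were above 0, and of those of Tmsb4x, 6 of 10. For Tmsb10 (0.36 against 0.09) it was 12 of 20, for Arpc2 (0.47 against -0.01) 9 of 20, for Cfl1 (-0.12 against -0.05) 8 of 20, and for Arpc3 (0.01 against -0.24) 7 of 20. Relative to Actb, Actg1 reads differed between the genotypes by 0.22 on the log2 scale, less than the spread between the WT libraries (SD 0.93; exact permutation p = 1, adjusted p = 1).

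By the authors' deposited classes, whose source is not stated, Actg1, Cfl1, Arpc2 and Arpc3 were Mov10 targets without m6A, and Actb, Pfn1, Tmsb4x and Tmsb10 were non-targets of Mov10. Tmsb4x and Pfn1, with 2 of the 3 lowest unadjusted p-values for reads, were thus in the class of non-targets, and Actg1 in that of targets. No member was in the class of targets with m6A.

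The wider actin cytoskeleton was followed through 86 further symbols listed by role, of which 78 had reads, 31 had enough for the tail test and 58 for the read number test. None passed the threshold in either test. For tails none had an unadjusted p under 0.05 in limma (2.33% of all genes), and the median log2 change was 0.03. Both KO libraries lay above both WT libraries in tail length for 11 of the 31 (35.5%), against 14.7% of all genes, and below them for 5, against 11.8% of all genes. For read number 6 of 58 had an unadjusted p under 0.05 (10.4% of all genes), which is the background share. The median log2 change in read number was 0.24, with 46 of 58 genes above 0 (79.3%, against 50.01% of all genes), and 19 (32.8%) had both KO libraries above both WT libraries, against 20.5% of all genes.

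The most read gene of each role gave the following values. Actr3, which with Actr2 forms the core of the Arp2/3 complex, had a WT mean of 101.2 nt ± 2.87 (SD, n = 2) against 107.8 nt ± 9.19 (SD, n = 2) for KO. Capzb, which caps the growing end of filaments, had 93.04 nt in WT and 92.7 nt in KO. Dstn, a relative of cofilin, had 98.7 nt and 102.8 nt, close to the 98.4 nt and 103.7 nt of Cfl1.

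Longer tails were seen for Ctnna1 (alpha-catenin, which links cadherins to actin), at 123.7 nt in WT and 129.0 nt in KO, and for the small GTPase Cdc42, at 122.3 nt and 118.9 nt. Actl6a, an actin-related protein of chromatin remodelling complexes, had a WT mean of 113.6 nt ± 8.18 (SD, n = 2) against 128.6 nt ± 15.3 (SD, n = 2) for KO. Brk1 of the WAVE complex (105.9 and 111.7 nt) and the bundling protein Tagln2 (115.1 and 112.1 nt) lay between. None of these differences passed the test.

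Myl6, a light chain of non-muscle myosin, had a WT mean tail of 107.9 nt ± 14.0 (SD, n = 2) against 111.3 nt ± 4.10 (SD, n = 2) for KO, and a log2 change in reads of 0.78 (limma, adjusted p = 0.239). The other genes with an unadjusted p under 0.05 for reads, named here for their values, were Actr2 (0.77), Cotl1 (2.17), Lasp1 (0.81) and Arhgdia (1.02) with more reads in KO, and Arpc1b (-0.996) with fewer. Arhgdia is also 1 of the 20 neighbours of Actg1. Within the Arp2/3 complex, the 7 further subunits thus spread from -0.996 to 0.77, with a median of 0.23.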

How the data were processed

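J1 mouse embryonic stem cell libraries, 2 WT and 2 KO, were sequenced as direct RNA on nanopores. Polyadenylated RNA was enriched by the authors on oligo(dT) beads and libraries were made with the SQK-RNA002 kit and DeePlexiCon adapters, per the labels' protocols. Minimap2 2.20 is named in the submitters' processing notes; the tail length tool, read filters and genome build are not given in the sources used here. The deposited table holds for each read, per the file headers, a transcript, a symbol, a library and an estimated tail length in nt, which is a length and not a count. The selection on oligo(dT) limits what is seen of very short tails.

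Of 1903922 reads, the 3 with a length of 0 were dropped. Median tail length per gene was tested on the log2 scale with limma 3.58.1 (R 4.3.3) where every library had at least 20 reads of the gene. Reads were counted here from the table and tested with limma's voom (median-of-ratios scaling, mean of at least 10 reads). P-values were Benjamini-Hochberg adjusted over all genes tested, with a threshold of 0.05. Tests on single values were exact permutation tests. Intervals of library medians, shares and levels cover read sampling only, and those of fitted ratios and folds come from limma's standard errors between libraries. On simulated data with the same genes, the tail length test recovered 75% of log2 changes of 0.5 over 1935 genes. The read number test recovered 14% of log2 changes of 1 and 85% of changes of 2 over 4815 genes, at a dispersion of 0.05. Each simulation changed 200 genes at once. For tail length every gene was given the same spread, whatever its reads, and there were 4 false calls. These shares therefore do not give the power for a lone changed gene or for a gene with few reads. Other steps used scipy 1.17.1, pandas 2.3.3 and numpy 2.4.6 in Python 3.11.15.

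The members, the list of other actin cytoskeleton genes and the tests were chosen with earlier results of these data known. Named genes were the members, Mov10, the most read gene of each role in the list, the genes with tails most like those of Actb and Actg1, and the 2 genes on each side of Actg1; others are said to be chosen by their values. Alternatives changed the summary, minimum reads, centring, weights, scaling, model, transcript assignment and block, or left out each library.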

Additional observations from a re-analysis of the deposited data

How the results depend on the processing

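The samples share replicate numbers, and the main fits did not pair them. Over 1935 genes same-numbered libraries showed little shared deviation (r = 0.0135 for tail length and 0.0436 for read number). Read sampling lowers such an r, and shifts common to all genes do not enter it. These values therefore cannot exclude pairing. With replicate number as a block, the read number test called 65 genes in place of 1, among them Actg1 (adjusted p = 0.0181) and Tmsb4x (0.00947), and the log2 change of Arpc3 was -0.00102; tail length had 0 calls. The read number test called 7 genes with total reads scaling (Actg1 among them, adjusted p = 0.0325), 96 with no filter (Actg1 0.0161 and Tmsb4x 0.009635 among them), and 0 with a mean of at least 50 reads or with the limma trend model. Total reads scaling moved the median of all genes to 0.11. Leaving out 1 library gave 0 to 456 calls, and 0 to 3 among the other actin cytoskeleton genes. For tail length, a minimum of 10 reads gave 1 call and leaving out 1 library 0 to 2. With 1 library left out, the lone library of a genotype is assumed to vary like the others. Under it, the median tail change of the members ran from 0.0173 to 0.135 and that of the other actin cytoskeleton genes from 0.00140 to 0.0673. Signs turned for tails of Actg1 (-0.12 without KO 1, -0.07 without WT 1, up to 0.16), Cfl1 (-0.0520 without WT 1, up to 0.21) and Arpc2 (-0.0105 without WT 2, up to 0.16). They turned for reads of Actb (-0.0613 to 1.40), Cfl1 (-0.38 to 0.22) and Arpc3 (-0.22 to 0.26, with -0.006475 without KO 2). Actg1 over Actb ran from -0.44 (without WT 2) to 0.87, with -0.02 without KO 1, and Actg1 over its neighbours from -0.50 (without WT 1) to 0.61. With 5 neighbours on each side that difference was -0.0204. Reads on transcripts with 1 symbol only gave Actg1 a tail change of -0.0529, on its less used transcript, and Arpc3 a read change of -0.00455, and gave no tail or read fit for Actb or Tmsb10 and no tail fit for Cfl1. Apart from what shrank the number of genes or libraries, the cause was not tested. Median read changes of the members kept above 0 throughout, from 0.42 to 0.78. Without Actg1 that median was 0.47, an alternative chosen after seeing the data, as was merging Gm9844 with Tmsb10. Depth limits Arpc2 and Arpc3 most.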

Other observations

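Reads on the Tmsb10 transcripts were split between Tmsb10 and Gm9844, which RefSeq lists as a pseudogene. Gm9844 held 217, 262, 375 and 253 reads in WT 1, WT 2, KO 1 and KO 2, or 35.7%, 48.4%, 33.8% and 31.8% of the reads of both. WT 2 stood high in this share. Median tails of the Gm9844 reads were 88.3, 114.4, 111.4 and 107.1 nt, and those of Tmsb10 were 96.8, 110.0, 108.9 and 111.5 nt, so that WT 1 was the lowest library under both symbols.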
